A study of Homo sapiens with 2 samples.

Results

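Immunoglobulin constant region genes encode the part of an antibody chain that sets its class. The 10 genes described here were chosen by name from the 57485 genes of the deposited tables. No rule on their values was used, but earlier results of these data were known. They are 7 heavy chain genes (IGHM, IGHG1, IGHG2, IGHG3, IGHG4, IGHA1 and IGHA2) and 3 genes that carry a light chain constant region (IGKC for kappa, and IGLC2 and IGLL5 for lambda). The question was which heavy and light chain classes had reads in a multiple myeloma (MM) line, and how their levels differed with or without Dox.

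RNA-seq was available for ARP1-SRD5A1-KD cells. ARP1 is a human MM cell line, and here it carried a lentiviral TRIPZ vector with an shRNA against SRD5A1 that doxycycline (Dox) switches on. Both groups carry the vector. The groups were 1 library labelled untreated (without Dox) and 1 library labelled as treated with Dox, 2 libraries in all, so with 1 library per condition the differences could not be compared with a spread between replicates. The dose and duration of Dox for these libraries, and whether the cells were 1 clone, are not given in the sources used here. The title of the library with Dox names SRD5A1, while its genotype label names SRD5A2. SRD5A1, the targeted gene, had 1375 counts without Dox and 3014 with Dox, a log2 fold change of 0.98, so the RNA that the shRNA targets was not lower but higher with Dox. Every direction given for the constant region genes therefore rests on the labels.

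Each table lists an expected count per gene, which is an estimate of the number of read pairs in which pairs matching several transcripts are divided among them. The expected counts summed to 45918570 without Dox and 48728927 with Dox, so 3 counts, the limit that a count of 0 allows, equal 0.065 and 0.062 of every 1000000 counts. FPKM divides the count by the length of the transcript and the depth of the library, and it is the scale for comparing levels of different genes. Counts also grow with transcript length, and shares and ratios of counts between genes are given here as shares of the reads. All 9 of 9 listed plasma cell markers reached 1 FPKM, 2 of them more than 2-fold higher with Dox and 0 more than 2-fold lower. Among all 14859 genes that reached 1 FPKM in at least 1 library, the matching shares were 17% and 6.41%. The highest B cell marker reached 1.32 FPKM, with CD22 at 0 counts in both libraries, and the highest values among T cell, myeloid, and epithelial or fibroblast markers were 0.31, 0.52 and 1.93 FPKM.

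An antibody is built of paired heavy and light chains, each with a variable region that binds the antigen and a constant region. A B cell joins a variable exon to the constant exons of its heavy chain locus, and class switching then places that exon before another constant gene, so that IgM is replaced by IgG, IgA or IgE. A light chain is either kappa or lambda. Plasma cells secrete the antibody, and MM cells are malignant plasma cells that usually make a single heavy and light chain class, or a light chain alone.

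In the GENCODE release 29 annotation of the GRCh38 genome, the 7 heavy chain genes lie on the reverse strand of chromosome 14. IGHM lies from 105851705 to 105856218, and in the direction of transcription it is followed by IGHG3 (105764503 to 105771405), IGHG1 (105736343 to 105743071), IGHA1 (105703995 to 105708665), IGHG2 (105639559 to 105644790), IGHG4 (105620506 to 105626066) and IGHA2 (105583731 to 105588395). IGKC lies on the reverse strand of chromosome 2 from 88857161 to 88857683. IGLL5 (22887780 to 22896107) and IGLC2 (22900976 to 22901437) lie on the forward strand of chromosome 22. Of the 20 transcripts that the tables list for the 10 genes, 19 are in this release with the same version, and the tables themselves hold no coordinates.

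The IgG genes are so alike that which of them a read came from depends on a few bases. The first 150 bases of the exon that codes for the last constant domain are shown for the 4 IgG genes, with capitals at the 9 positions that are not the same in all 4. All sequences here are the GRCh38 reference, written 5′ to 3′ along the strand of the gene.
IGHG1, chr14:105741646-105741795, reverse strand: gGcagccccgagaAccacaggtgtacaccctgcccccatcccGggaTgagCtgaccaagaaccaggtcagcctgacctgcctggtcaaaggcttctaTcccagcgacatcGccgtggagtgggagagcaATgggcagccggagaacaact
IGHG2, chr14:105643376-105643525, reverse strand: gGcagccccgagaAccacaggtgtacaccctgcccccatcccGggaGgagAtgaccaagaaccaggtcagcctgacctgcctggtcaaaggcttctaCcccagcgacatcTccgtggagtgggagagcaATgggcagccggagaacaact
IGHG3, chr14:105769410-105769559, reverse strand: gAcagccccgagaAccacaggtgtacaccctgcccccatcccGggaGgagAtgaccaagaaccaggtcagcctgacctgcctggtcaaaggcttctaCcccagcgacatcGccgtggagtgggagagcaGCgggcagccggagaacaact
IGHG4, chr14:105624649-105624798, reverse strand: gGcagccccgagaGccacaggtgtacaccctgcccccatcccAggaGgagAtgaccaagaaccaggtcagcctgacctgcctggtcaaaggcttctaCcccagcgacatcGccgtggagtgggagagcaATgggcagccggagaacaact

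Over the 320 coding bases of that exon, IGHG1 differed from IGHG2 at 6 positions, from IGHG4 at 9 and from IGHG3 at 12. The first exon of the membrane form, which encodes the anchor of the B cell receptor, has 131 bases, and 3 of its positions are not the same in all 4 genes (capitals).
IGHG1, chr14:105740063-105740193, reverse strand: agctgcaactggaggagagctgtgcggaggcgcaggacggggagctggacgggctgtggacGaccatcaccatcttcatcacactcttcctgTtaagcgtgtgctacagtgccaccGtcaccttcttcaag
IGHG2, chr14:105641779-105641909, reverse strand: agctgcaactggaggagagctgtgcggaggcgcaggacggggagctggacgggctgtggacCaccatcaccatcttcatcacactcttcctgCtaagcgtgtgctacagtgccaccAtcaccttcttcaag
IGHG3, chr14:105767813-105767943, reverse strand: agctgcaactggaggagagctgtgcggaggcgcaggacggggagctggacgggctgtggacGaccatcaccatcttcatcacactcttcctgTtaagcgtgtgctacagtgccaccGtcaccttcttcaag
IGHG4, chr14:105623068-105623198, reverse strand: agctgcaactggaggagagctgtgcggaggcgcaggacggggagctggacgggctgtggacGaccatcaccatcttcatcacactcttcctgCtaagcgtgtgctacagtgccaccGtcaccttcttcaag

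IGHG1 and IGHG3 have the same bases throughout this exon, and IGHG4 differs from them at 1 position. The share of all stretches of 150 bases (the read length) that also occur in another gene was 9.40% to 14.5% in the 3 IGHG1 transcripts, 1.55% to 4.58% in those of IGHG4 and 0% to 10.7% in those of IGHG3. For the IgA genes, the first 150 bases of the first constant exon are shown with capitals at the 9 positions that differ.
IGHA1, chr14:105708516-105708665, reverse strand: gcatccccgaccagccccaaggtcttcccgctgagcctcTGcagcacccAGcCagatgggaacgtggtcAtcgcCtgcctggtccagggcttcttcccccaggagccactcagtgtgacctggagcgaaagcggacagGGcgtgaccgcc
IGHA2, chr14:105588246-105588395, reverse strand: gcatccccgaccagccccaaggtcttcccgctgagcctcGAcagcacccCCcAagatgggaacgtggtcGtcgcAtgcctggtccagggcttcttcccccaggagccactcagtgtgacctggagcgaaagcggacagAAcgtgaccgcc

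The lambda genes fall into pairs. The last exon of IGLL5 lies on chromosome 22 from 22895375 to 22895825 and shares all of its 451 bases with IGLC1, a lambda constant gene that is not among the 10. Shown are the first 150 bases of the lambda constant exon, with capitals at the 12 positions that are not the same in all 4 genes.
IGLC1, chr22:22895375-22895524, forward strand: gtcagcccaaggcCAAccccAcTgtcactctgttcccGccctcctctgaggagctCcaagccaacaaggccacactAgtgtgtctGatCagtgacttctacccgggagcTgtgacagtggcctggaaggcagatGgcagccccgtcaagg
IGLL5, chr22:22895375-22895524, forward strand: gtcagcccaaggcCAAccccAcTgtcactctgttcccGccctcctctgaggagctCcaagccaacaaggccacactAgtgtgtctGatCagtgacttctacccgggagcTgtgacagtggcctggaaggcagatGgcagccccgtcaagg
IGLC2, chr22:22900976-22901125, forward strand: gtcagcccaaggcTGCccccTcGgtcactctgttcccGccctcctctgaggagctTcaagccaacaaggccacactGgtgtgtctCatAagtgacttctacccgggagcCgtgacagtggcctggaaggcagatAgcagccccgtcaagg
IGLC3, chr22:22906342-22906491, forward strand: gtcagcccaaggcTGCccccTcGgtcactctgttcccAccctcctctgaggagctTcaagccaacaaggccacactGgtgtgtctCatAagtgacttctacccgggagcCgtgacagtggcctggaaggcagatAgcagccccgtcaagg

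IGLC1 and IGLL5 are identical here because they are the same stretch of the chromosome, and 100% of the 150-base stretches of IGLC1 also occur in IGLL5. IGLC2 and IGLC3 differed at 3 of 317 coding bases, and 7.67% of their stretches are shared. The counts of these pairs are therefore given summed as well as apart. IGKC shares no stretch of 150 bases with the other constant genes, and its first 150 bases are shown with no capitals.
IGKC, chr2:88857534-88857683, reverse strand: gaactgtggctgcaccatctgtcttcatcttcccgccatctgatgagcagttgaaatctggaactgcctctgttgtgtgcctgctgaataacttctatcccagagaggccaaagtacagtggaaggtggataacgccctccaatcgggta

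In both libraries 9 of the 10 genes had counts. The heavy chain counts were almost all IgG, with IGHG1 far above the other genes. Counts were high in IGKC and in IGLL5, which carries a lambda constant region. IGHM, the class made before switching, had 0 counts in both libraries.

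IGHG1, the constant region of the IgG1 subclass, had 12941 counts without Dox and 8022 with Dox, or 173 and 98.8 FPKM. It made up 89.4% of the counts of the 7 heavy chain genes without Dox (95% exact Clopper-Pearson interval 88.9 to 89.9) and 87.6% with Dox (86.9 to 88.3). All intervals here cover counting error only. IGHG1 was thus the main heavy chain gene in each library. It ranked 634 among all genes by FPKM without Dox and 1060 with Dox.

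IGHG4, the IgG4 constant region, had 794 counts without Dox and 472 with Dox, which were 5.49% and 5.16% of the heavy chain counts. IGHG3, the IgG3 constant region, had 606 and 428 counts, or 4.19% and 4.67%. On the FPKM scale IGHG1 stood 23.5 times and 24.0 times above IGHG4 in the libraries without and with Dox. IGHG2, the IgG2 constant region, was close to the limit of detection with 4.50 and 7.58 expected counts. IGHG2 did not reach 1 FPKM in either library.

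The IgA genes were present at low level. IGHA1 had 33.1 counts without Dox and 59.7 with Dox, or 0.75 and 1.19 FPKM. IGHA2 had 90.6 and 166 counts, or 2.38 and 4.06 FPKM. The FPKM of IGHA2 was 3.17 times that of IGHA1 without Dox and 3.41 times with Dox, and the counts were 2.74 and 2.78 times. Together the IgA genes took 0.857% of the heavy chain counts without Dox (interval 0.713 to 1.02) and 2.47% with Dox (2.16 to 2.81). IgG took 99.1% and 97.5%.

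Among the other heavy chain constant genes, IGHD, which is transcribed together with IGHM in naive B cells, also had 0 counts in both libraries. IGHE, the IgE constant region, had 9 counts without Dox and 2 with Dox. The pseudogene IGHGP, which lies between IGHA1 and IGHG2, had 11 and 26 counts. The pseudogenes IGHEP1 and IGHEP2 had 0 and 1, and 4 and 0 counts. For the genes at 0 the depth allows up to 3 counts, and lower levels cannot be seen.

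IGKC, the only kappa constant gene, had 86371 counts without Dox and 62359 with Dox. At 6715 and 4613 FPKM it ranked 10 and 19 among all genes. IGLL5 had 51626 counts without Dox and 38052 with Dox, or 1466 and 962 FPKM, and ranked 90 and 116. IGLC2 had 93.5 and 40.7 counts, or 9.28 and 3.86 FPKM. Counts were therefore high in each library for IGKC and for IGLL5. Nearly all counts of the lambda genes were in IGLL5 and the gene that shares its exon. Whether those counts came from a rearranged lambda light chain cannot be told from the totals.

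IGLC1 had 9010 counts without Dox and 8883 with Dox. Summed with IGLL5 it gave 60636 and 46935 counts. RNA of IGLL5 and of a rearranged lambda light chain spliced to IGLC1 cannot be told apart in these totals, since both contain the shared exon. IGLC3 had 11.5 and 3.27 counts, IGLC4 2 and 1, IGLC5 and IGLC7 1 and 0 each, and IGLC6 0 in both libraries. IGLL1, the lambda-like chain of the receptor of B cell precursors, had 0 counts without Dox and 3 with Dox.

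Of all light chain counts, IGKC took 58.7% without Dox (interval 58.5 to 59.0) and 57.0% with Dox (56.7 to 57.3). The 8 lambda genes took 41.3% and 43.0%. Per transcript length the share of kappa was larger, with most of the summed counts of IGLL5 and IGLC1 assigned to IGLL5. How many of them came from the shared exon is not given by the gene totals. IGKC has an effective length (the positions a fragment can start from) of 280 bases without Dox and IGLL5 of 767. Of the FPKM of all light chain constant genes, IGKC took 73.8% without Dox and 71.7% with Dox. Its FPKM was 2.83 and 2.55 times the summed FPKM of IGLL5 and IGLC1. Against IGLL5 alone it was 4.58 and 4.79 times, so the direction between the libraries depended on how the shared exon was divided. The level depended on it too. IGLC1 has an effective length of 217 bases without Dox, so more of the shared counts in IGLC1 would give kappa a smaller share by FPKM. The libraries are bulk RNA, so whether the same cells held RNA of both kappa and lambda constant regions was not measured.

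**Figure D1:**
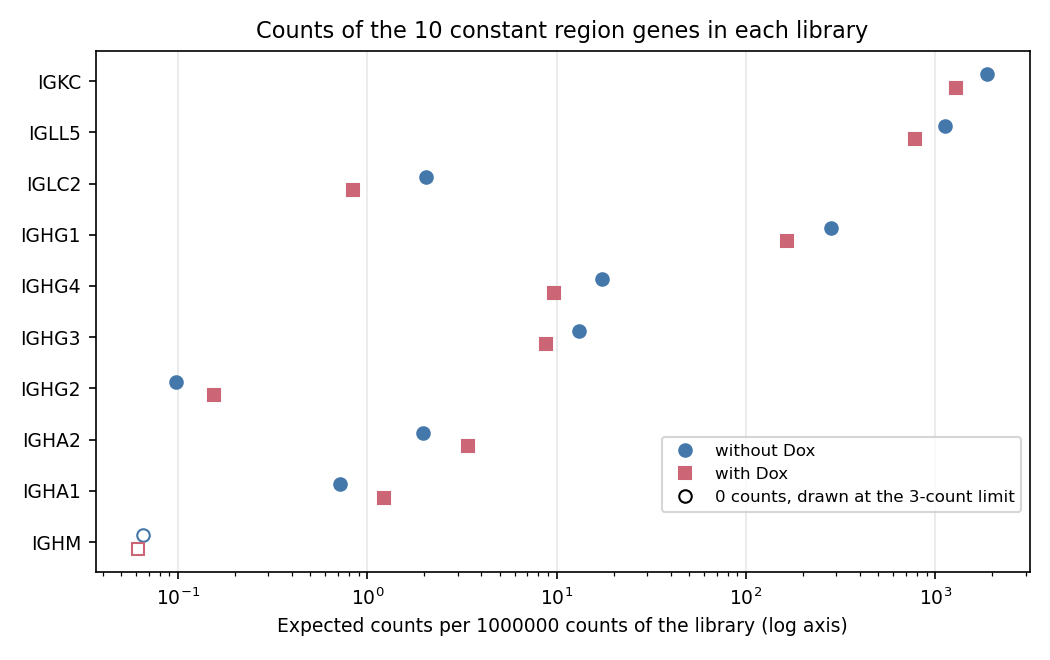
Expected counts per 1000000 counts of the library (horizontal log axis) of the 10 constant region genes, with a circle for the library without Dox and a square for the library with Dox. IGKC and IGLL5 lie highest, IGHG1 is the highest heavy chain gene, and IGHM (open symbols) has 0 counts and is drawn at the limit of 3 counts, 0.065 and 0.062 per 1000000.

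**Figure D2:**
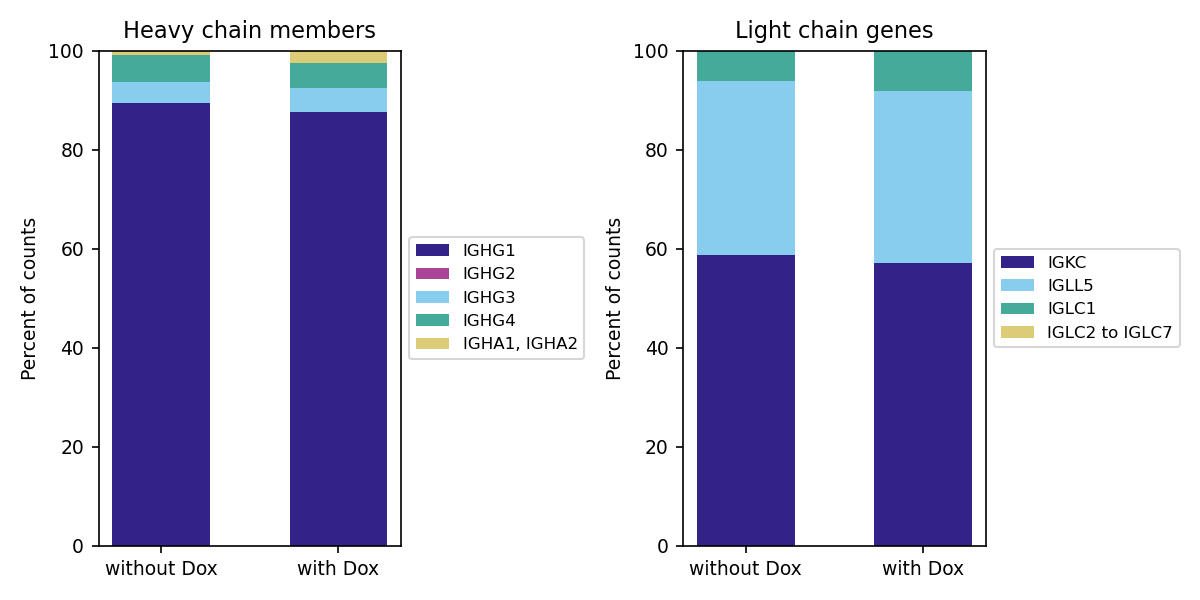
Percent of the counts of the heavy chain members (left) and of all light chain constant genes (right) in the libraries without and with Dox. IGHG1 takes 89.4% and 87.6% of the heavy chain counts, and IGKC 58.7% and 57.0% of the light chain counts, with IGLL5 and IGLC1 taking almost all of the rest.

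The counts of light chains were far above those of heavy chains. The 3 light chain members summed to 138090 counts without Dox and 100452 with Dox, and the 7 heavy chain members to 14470 and 9156. Light chain counts were 9.54 times the heavy chain counts without Dox and 10.97 times with Dox, and the summed FPKM were 43.2 and 49.7 times. The FPKM of IGKC stood 38.8 and 46.7 times above that of IGHG1.

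The variable genes, which encode the antigen binding part, were assigned few counts beside these totals. The tables list 327 variable genes, of which 42 had a count, and together they had 391 counts without Dox and 176 with Dox, or 0.257% and 0.161% of the counts of the 10 constant region genes. Kappa variable genes had 328 and 132 counts, led by IGKV3-7 with 148 and 48. Lambda variable genes had 49 and 32 counts, led by IGLV5-52 with 19 and 9. Heavy chain variable genes had 14.5 and 12.5 counts, with at most 2.5 counts per library for each of the leading genes IGHV1-69D, IGHV1-69 and IGHV1-2.

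No variable gene thus had counts near those of IGKC, IGLL5 or IGHG1. How well reads of a rearranged variable exon match the listed variable genes was not tested. Their low counts therefore cannot be read as low expression of the variable part. The next kappa genes by counts were an orphan gene of the same variable family outside the kappa locus, with 128 and 44 counts, and IGKV3D-11 with 32.2 and 12. For lambda they were IGLV3-9 with 21 and 6 counts and IGLVIVOR22-2 with 2 and 8. All 37 diversity segments and the joining segments of the heavy and kappa chains were listed at 0 counts. Their zeros cannot be read as absence, since the diversity segments and 19 of the 22 joining segments are so short that their effective length is 0.

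Most constant region genes were lower in the library with Dox. Fold changes were computed as the log2 ratio of FPKM with a pseudocount of 0.1 added, with Dox over without Dox, over the 14859 genes that reached 1 FPKM without Dox, with Dox or in both, and a gene was called past 2-fold. Of the 10 members, 8 were in this set. IGHA1 passed only through the library with Dox, and IGHG2 and IGHM did not pass. Of the 8, 6 had a log2 fold change below 0 (IGHG1, IGHG3, IGHG4, IGKC, IGLC2 and IGLL5), beside 41.5% of all 14859 genes, and the IgA genes had values above 0. The median over the 8 was -0.58, beside 0.15 over all 14859 genes.

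Past 2-fold, 1 of the 8 members was lower and 0 were higher, while over all genes 6.41% were called lower and 17% higher. Most differences of the members, like most of those over all tested genes, were thus smaller than 2-fold. The call was IGLC2, a lambda constant gene, at -1.24 on the log2 FPKM scale, and it rests on 93.5 and 40.7 counts. Its count share, the count over the library total, gave a log2 ratio of -1.28 (95% counting interval -1.83 to -0.72). Summed with IGLC3 the counts were 105 and 44, a log2 ratio of -1.34 (-1.88 to -0.82).

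IGHG1 had a log2 FPKM fold change of -0.81, below which 10.1% of all tested genes lay, and IGHG4 had -0.82, with 9.75% below. Their count shares gave log2 ratios of -0.78 (counting interval -0.82 to -0.74) and -0.84 (-1.003 to -0.67). IGHG3 had a log2 FPKM fold change of -0.56, with 16.0% of tested genes below. IGHG1 and IGHG4 were not past 2-fold here, but they were lower past 2-fold when the FPKM were rescaled by edgeR's TMM factors (-1.02 and -1.03) or by DESeq2's size factors (-1.02 and -1.02), which raises the number of members called lower to 3. These factors moved the median of all genes by -0.23 and -0.22 and changed the split of all called genes from 2521 higher and 953 lower to 1857 and 1570 with TMM and to 1875 and 1547 with DESeq2.

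The highly expressed light chain genes differed by similar amounts. IGKC had a log2 FPKM fold change of -0.54, with 16.7% of tested genes below, and a count share ratio of -0.56 (-0.57 to -0.54). IGLL5 had -0.61, with 14.7% below, and a count share ratio of -0.53 (-0.54 to -0.51). IGLC1, in contrast to its partner, had a log2 FPKM fold change of -0.09. Since the counts of the shared exon are divided by estimation, the sum of IGLL5 and IGLC1 is the firmer value, with a log2 ratio of -0.46 (-0.47 to -0.44).

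The IgA genes lay on the other side of 0. IGHA2 had a log2 FPKM fold change of 0.75, with 76.3% of tested genes below, and IGHA1 of 0.60, with 71.2% below. The summed IgA counts went from 124 to 226, a log2 count share ratio of 0.78 (0.46 to 1.11), while the summed IgG counts went from 14346 to 8930, a ratio of -0.77 (-0.81 to -0.73). The intervals cover counting error only, and with 1 library per condition no test of the difference between IgA and IgG can be made. IGHG2 had a count share ratio of 0.67, with an interval from -0.99 to 3.10 that includes 0.

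The signs of all 8 members were the same under each of the 8 other settings of pseudocount, filter and scaling. These settings could hardly have given another outcome. A change of pseudocount or filter cannot turn a sign. The largest move of the median of all genes by a scaling was -0.23, with TMM, and the member closest to no change was IGKC at -0.54. The constant region genes in all took 0.332% of the counts without Dox and 0.225% with Dox. In a bulk library, fewer cells that express a gene and less RNA of it per cell cannot be told apart.

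**Figure D3:**
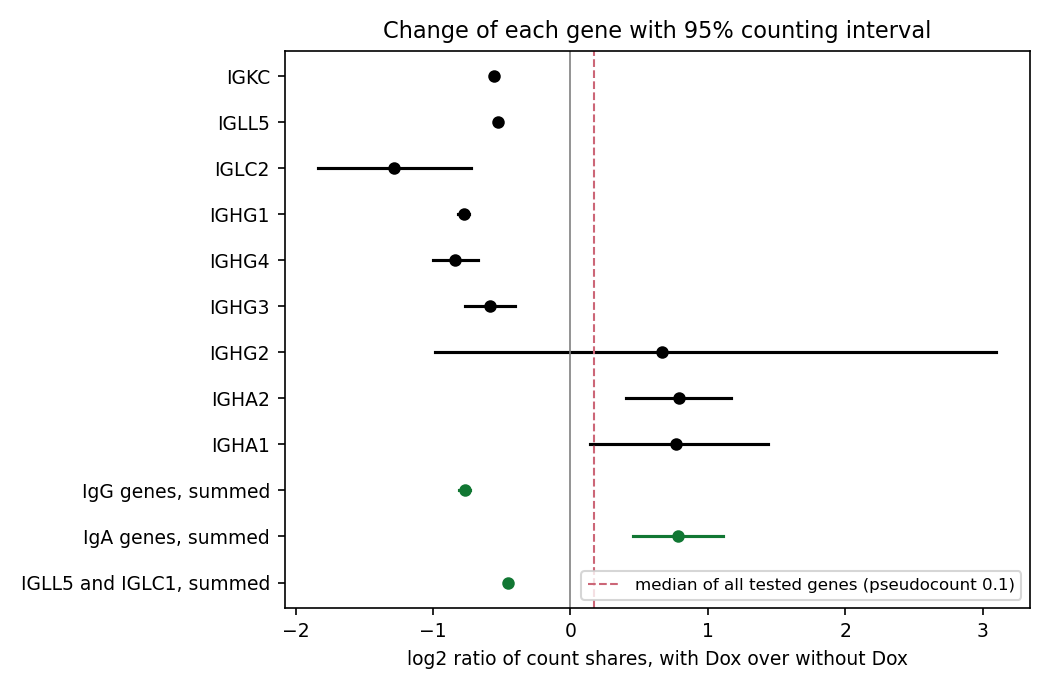
Log2 ratio of the count share with Dox over that without Dox for the 9 members with counts (black) and for summed genes (green), with lines for the 95% counting interval, a solid line at 0 and a dashed line at the median of all tested genes in counts per 1000000 (0.17). The IgG, kappa and lambda genes other than IGHG2 lie below 0, IGHA1 and IGHA2 lie above 0, and the interval of IGHG2 includes 0.

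The heavy chain genes make a secreted and a membrane form from the same gene by a choice of the 3′ end. The membrane transcripts of IgG carry an extra pair of exons, the last of 1490 to 1503 bases. The deposited length of a gene is the mean of its transcripts weighted by their estimated abundance, so it gives the share assigned to the longest transcript, which is the membrane form. For IGHG1 the mean length was 1872 bases without Dox and 1912 with Dox, between the 2619 bases of the membrane transcript and the 1128 and 1022 bases of the others. The share of the membrane form was therefore 49.9% to 53.2% without Dox and 52.6% to 55.7% with Dox, as bounds that follow from its 3 transcripts.

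IGHG3 and IGHG4 were assigned more of the membrane form than IGHG1 was. IGHG3 had 80.7% without Dox and 79.7% with Dox. IGHG4 had 100% in both libraries, its mean length being that of the membrane transcript, 2597 bases. IGHA2, in contrast, had 0% without Dox and 6.23% with Dox, and IGHA1 had 44.1% and 82.7%. The values of IGHA1 rest on 33.1 and 59.7 counts and those of IGHG2 (70.8% and 12.7%) on 4.50 and 7.58, and no error of these estimates can be computed from the gene totals. In IGHG1, the gene with most counts, the bounds of the libraries overlapped.

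Of the 6 listed genes whose products pair with the constant chains, 3 had at least 1 FPKM, 0 of them were past 2-fold and their median log2 FPKM fold change was -0.37. Over all tested genes 17% were past 2-fold higher and 6.41% lower. JCHAIN, the chain that joins IgM and IgA into polymers, had 157669 counts without Dox and 108580 with Dox. Its 5444 and 3515 FPKM stood 31.5 and 35.6 times above those of IGHG1, and its log2 FPKM fold change was -0.63. MZB1, a chaperone cofactor for antibody assembly, had 528 and 408 FPKM, a log2 fold change of -0.37. CD79A, a signalling chain of the B cell receptor, had 94 and 88 counts and its partner CD79B had 0 and 5. VPREB1 had 0 counts in both libraries and VPREB3 had 4 and 5. By FPKM JCHAIN thus lay between IGKC and IGLL5 in both libraries, while the receptor chains had few counts.

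The 26 listed genes for folding and secretion of antibody in the endoplasmic reticulum all had at least 1 FPKM, and their median log2 fold change was -0.02. HERPUD1 and SEL1L, of the pathway that removes misfolded proteins, were past 2-fold higher at 1.42 and 1.17. CALR, a chaperone that binds glycoproteins, was past 2-fold lower at -1.01. DNAJB9, a cofactor of the chaperone BiP, had 0.98 and was not past 2-fold. These 2 higher and 1 lower of 26 stand beside 17% and 6.41% of all genes.

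Of the 19 listed regulators of immunoglobulin transcription and of the choice of the secreted 3′ end, 17 had at least 1 FPKM, with a median log2 fold change of 0.15. IKZF3 and EAF2 were past 2-fold higher, at 1.17 and 1.07, and SPIB, with 2.74 and 1.10 FPKM, was past 2-fold lower at -1.24. These calls stand beside 17% higher and 6.41% lower of all tested genes. CSTF2, a subunit of the cleavage factor that selects the secreted 3′ end, had 27.5 and 15.2 FPKM, a log2 fold change of -0.85. ELL2, of the same list, went the other way at 0.30. Of the 17 genes, 11 had a log2 fold change above 0 and 6 below 0. BACH2, a repressor that holds back plasma cell formation, had 0.70. Neither list thus had the low median of the constant region genes.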

How the data were processed

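Poly(A) RNA of both libraries was sequenced as paired reads of 150 bases. The authors deposited expected counts, FPKM and TPM per gene, with a mean and an effective length, in the layout that RSEM writes. Per the labels, the submitters' processing notes name HISAT2 2.1.0, StringTie 1.3.4d, Bowtie 0.12.2 and hg19, with no role for each, while 202888 of the 204675 listed transcripts are in GENCODE release 29, so the coordinates and sequences given are those of that release on GRCh38 and not of the files. The expected counts summed to 45918570 and 48728927. The constant region genes and the gene lists were chosen with earlier results of these data known.

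From the deposited values, log2 ratios of FPKM plus 0.1 were computed over genes that reached 1 FPKM in either library, with a threshold of 2-fold. Count shares had exact binomial (Clopper-Pearson) 95% intervals on counts rounded to whole numbers, which cover counting error only. With 1 library per condition no dispersion can be estimated, so the study's edgeR test was not run and no p-value is given. All members were named, with the other constant genes that had a count, the 3 variable genes of each chain with most counts, and in each other list up to 4 genes of at least 5 FPKM with the largest absolute change. CD79A, CD79B, VPREB1, VPREB3, SPIB, ELL2 and the markers at 0 or highest in their list were named after their values were seen. Alternatives covered the pseudocount, the filter, TPM, counts per 1000000, and the factors of edgeR 4.0.16 (TMM) and DESeq2 1.42.0 in R 4.3.3. Python 3.11.15, pandas 2.3.3, numpy 2.4.6, scipy 1.17.1 and matplotlib 3.10.9 were used for the rest. Single values of some listed genes are not reported here. The fold and interval steps were tested on simulated data.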

Additional observations from a re-analysis of the deposited data

How the results depend on the processing

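Of the settings tried, 2 changed a call of a member. With FPKM rescaled by edgeR's TMM factors or by DESeq2's size factors, 3 members and not 1 were lower past 2-fold, IGHG1 and IGHG4 joining IGLC2. The calls of the other listed genes and of the markers were not repeated under these settings. These factors moved the median of all genes by -0.23 and -0.22, so calls of those genes near 2-fold may depend on the scaling. The summed heavy chain counts had a log2 ratio of -0.75, and of -0.96 with TMM effective library sizes, -0.95 with DESeq2's size factors and -0.66 with summed TPM. The summed light chain counts had -0.54, and -0.76 with TMM, -0.75 with DESeq2, -0.46 with summed TPM, -0.51 with all light chain constant genes and -0.51 with the 3 members and IGLC1, an alternative chosen after seeing the data, as was the share with IGLC1 given last. The share of IGHG1 in the heavy chain members without Dox was 89.4% by counts and 91.3% by FPKM or by TPM. That of IGKC in the light chain members was 62.5% without Dox and 62.1% with Dox by counts, and 82.0% and 82.7% by FPKM or by TPM, which divide by the short effective length of IGKC. Over all light chain constant genes, IGLC1 included, it was 73.8% and 71.7% by FPKM, so that it was lower and not higher with Dox. The other values, 19 on sums, shares or counts of members and 60 on single genes, kept their direction and their side of 2-fold or stayed within the counting interval. A change of pseudocount or filter could not have turned the direction of a single gene. No paired analysis was possible because each condition has 1 library. For the same reason no library could be left out. The counts of IGHG2 and of the genes at 0 are too few to show a difference, and the division of reads between IGLL5 and IGLC1 and among the IgG genes has no error that the gene totals could give.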

Other observations

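Of 10 listed genes of class switch recombination, the step that exchanges one heavy chain constant gene for another, 9 had at least 1 FPKM, 0 were past 2-fold, and the median log2 fold change was -0.40. Over all tested genes 17% were past 2-fold higher and 6.41% lower. XRCC6 and XRCC5, which form the Ku complex at broken DNA ends, had log2 fold changes of -0.49 and -0.62, and they had 394 and 196 FPKM without Dox. LIG4, the ligase that seals the ends, had 0.77 and PAXIP1, an adaptor at DNA breaks, had -0.75.

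Of 8 listed genes that are recurrent translocation partners of the heavy chain locus in MM, 6 had at least 1 FPKM, 0 were past 2-fold higher and 1 lower, with a median log2 fold change of 0.19. The shares over all tested genes were 17% higher and 6.41% lower. MYC had 456 FPKM without Dox and 639 with Dox, MAF 37.6 and 52.4, and NSD2 65.5 and 89.3. CCND3 was past 2-fold lower, at 27.6 and 13.7 FPKM, a log2 fold change of -1.01. Expression alone does not say whether any of these genes is joined to the heavy chain locus in ARP1.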
